A study of Mus musculus with 36 samples.

Results

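Expression of 10 nuclear receptor genes was described in dendritic cells (DCs) that carry thrombomodulin (TM) on their surface and in DCs that do not. The genes were Rara, Rarg, Rxra, Rxrb, Pparg, Ppard, Vdr, Nr4a1, Nr4a2 and Nr4a3, chosen by name as the retinoid, PPAR, vitamin D and Nr4a receptors. For each symbol the transcript cluster annotated to that symbol alone, with the highest mean over all arrays, was taken. All 10 receptors had exactly 1 such cluster, so that 10 of the 19938 genes tested are the subject here. The study asked how TM+ and TM- DCs differ in gene expression and whether soluble TM (sTM) changes it. Bone marrow cells of Balb/c mice aged 10 to 12 weeks were grown with GM-CSF, a growth factor that drives DC formation, at 100 ng/ml for 6 days, and this was shared by all groups. The sorted groups were TM+ DCs (6 arrays) and TM- DCs (6 arrays) from cultures that received human sTM at 200 nM on day 4, and TM+ DCs (4 arrays) and TM- DCs (4 arrays) from untreated cultures. Unsorted DCs gave 8 arrays of sTM-treated and 8 arrays of untreated cultures. Fractions were separated by magnetic microbeads after staining for TM, and the labels give them as more than 93% pure, so that a small share of the other fraction remains in each. The labels call the arrays of 1 group in 1 experiment biological replicates. No source at hand says whether these were separate cultures or mice, so the p-values measure only the spread between these arrays.

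Nuclear receptors are transcription factors, and most of them are switched by small lipophilic ligands. The retinoic acid receptors (RARα, RARγ), the peroxisome proliferator-activated receptors (PPARγ, PPARδ) and the vitamin D receptor bind DNA as dimers with a retinoid X receptor (RXR). In DCs these receptors are known for tuning lipid handling, retinoic acid production and the step from an immature to a mature, T cell-stimulating state. The Nr4a genes code for receptors with no established natural ligand. Their activity follows their transcription, which is switched on within minutes by many stimuli, as for other immediate early genes.

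The 20 sorted arrays came from experiments 2, 3 and 4, each group having 2 arrays in each experiment it was part of. Untreated sorted DCs were measured only in experiments 3 and 4. The 16 unsorted arrays came from experiments 1, 2 and 3. Values are log2 of the deposited intensities, and the median log2 of an array lay between 6.599 and 6.807 over all 36 arrays. Thbd, the gene of TM itself, had log2 levels from 5.84 to 6.26 in TM+ and from 5.75 to 6.499 in TM- DCs of sTM-treated cultures, and from 5.76 to 6.92 in TM+ and from 5.65 to 6.06 in TM- DCs of untreated cultures. Its mRNA did not pass the test between the fractions (log2 difference 0.24 ± 0.12 SE, limma adjusted p = 0.12), while the sort itself was made on the surface protein. Among 12 DC markers 7 were called higher and 4 lower in TM+ DCs by limma, beside 18.6% and 18.7% of all genes. Defining markers of T, B and NK cells had array medians from 5.001 to 5.53 in TM+ and from 5.10 to 5.83 in TM- DCs of sTM-treated cultures, and 0 of 7 were called between the fractions by limma (1 at an unadjusted p under 0.05).

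Between TM+ and TM- DCs, 7 of the 10 receptors differed. Rara, Pparg and Rxra were higher in TM+ DCs, and Nr4a2, Nr4a3, Nr4a1 and Ppard were lower. The largest difference upward was that of Pparg, 2.09-fold higher, and the largest downward that of Nr4a2, 2.28-fold lower in TM+ DCs. A gene was called when its p from limma, adjusted by the Benjamini-Hochberg method over all 19938 genes, was under 0.05. Over all genes 18.6% were called higher and 18.7% lower in TM+ DCs, against 3 of 10 and 4 of 10 receptors. When each array was centred on its 75th percentile, 3168 genes were called higher and 7174 lower, in place of 3709 and 3729, and 3 receptors were then higher and 6 lower. In a stricter reading of single arrays, both TM+ arrays lay above both TM- arrays in each of the 5 pairs of sorted fractions (3 sTM-treated, 2 untreated) for Rara and Pparg, a pattern that 6.59% of all genes had. For Ppard and Nr4a2 both TM+ arrays lay below both TM- arrays in all 5, as 4.58% of all genes did.

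**Figure D1:**
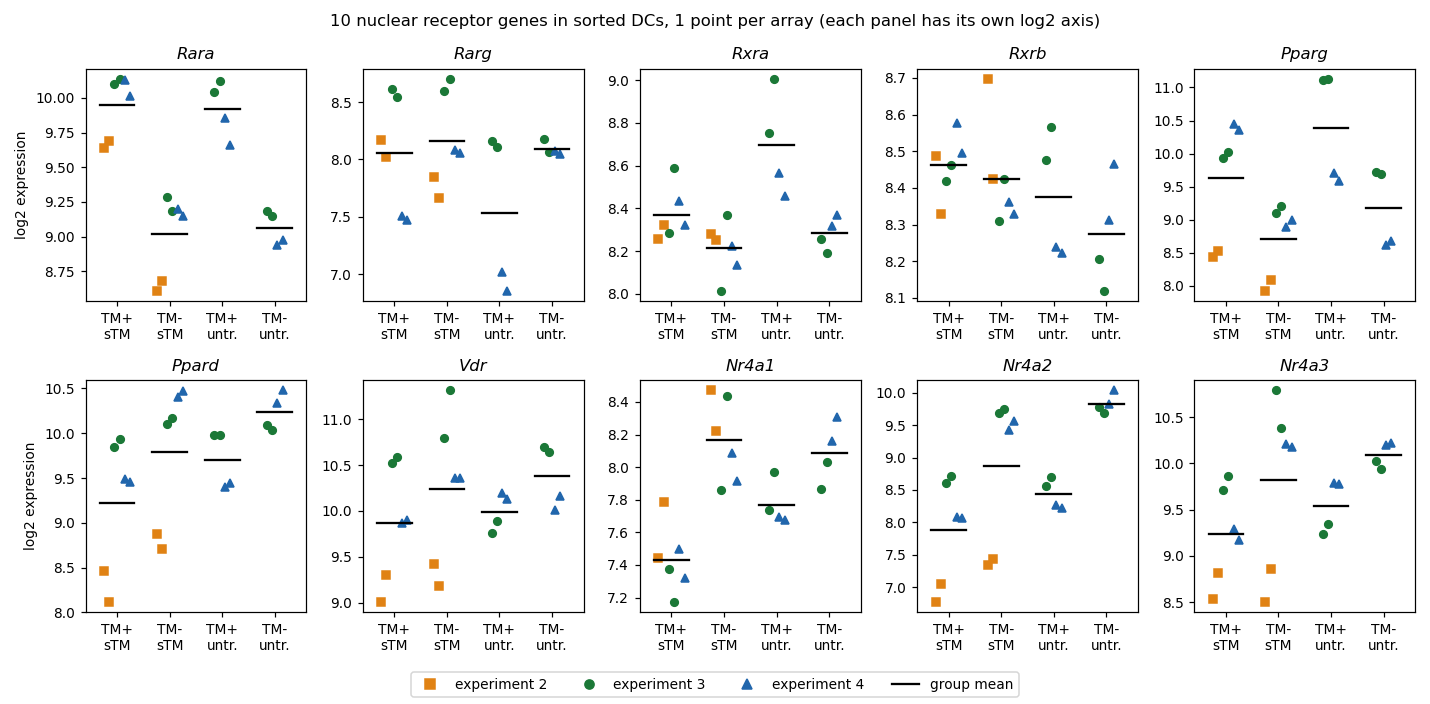
Log2 expression of the 10 receptors in the 20 arrays of sorted DCs, with 1 point per array, symbols by experiment and black bars at the group means. Rara and Pparg are higher in TM+ than in TM- DCs within every experiment, Ppard and Nr4a2 lower, and the arrays of experiment 2 lie apart for 6 of the 10 genes.

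Rara codes for RARα, a retinoic acid receptor expressed widely in blood-forming cells (transcript cluster 10381082). Its log2 expression in TM+ DCs of sTM-treated cultures had a lowest value of 9.64, a median of 10.06 and a highest value of 10.14, against 8.61, 9.17 and 9.29 in TM- DCs. In untreated cultures the 4 TM+ arrays had 10.04, 10.12, 9.85 and 9.66, against 9.18, 9.15, 8.94 and 8.98 in the 4 TM- arrays. No TM+ array overlapped a TM- array in either kind of culture. The log2 difference was 0.90 ± 0.07 (SE), or 1.86-fold, with an adjusted p of 3.22e-09. In sTM-treated cultures of experiments 2, 3 and 4 it was 1.02, 0.88 and 0.90, and in untreated cultures of experiments 3 and 4 it was 0.92 and 0.80. Rara is also among the genes that the study listed for the strongest association with sorting on these same arrays, so its call here is not independent evidence.

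Rarg, the gene of RARγ (cluster 10432972), did not follow Rara. In sTM-treated cultures its lowest, median and highest log2 values were 7.47, 8.10 and 8.61 in TM+ and 7.67, 8.07 and 8.70 in TM- DCs. In untreated cultures TM+ arrays had 8.16, 8.11, 7.02 and 6.86, and TM- arrays had 8.18, 8.07, 8.08 and 8.05. The low values were the TM+ arrays of experiment 4, while those of experiment 3 overlapped the TM- arrays. The pooled difference of -0.33 ± 0.13 had an adjusted p of 0.053. Leaving out 1 array at a time brought it past the threshold in 8 of 20 cases (3 arrays of experiment 2 and 5 of experiment 3, adjusted p down to 0.0296). Of 13 other alternative fits 6 called Rarg lower, among them those with the experiment as a fixed factor, without experiment 2 and without experiment 3 (adjusted p down to 0.00175). Without experiment 4 the difference was 0.07 and not called (adjusted p = 0.848).

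The RXR genes, which code for the shared dimer partners, moved little. Rxra (cluster 10470446) had lowest, median and highest log2 values of 8.26, 8.32 and 8.59 in TM+ and 8.02, 8.24 and 8.37 in TM- DCs of sTM-treated cultures, which overlap. In untreated cultures the TM+ arrays had 8.75, 9.01, 8.57 and 8.46, all above the TM- arrays at 8.26, 8.19, 8.32 and 8.37. Its pooled difference was 0.28 ± 0.07, or 1.22-fold, with an adjusted p of 0.00301. Without experiment 3 it was 0.14 and no longer called (adjusted p = 0.111). Rxrb (cluster 10444137) ranged from 8.22 to 8.58 in TM+ and from 8.12 to 8.70 in TM- DCs. Its difference of 0.07 ± 0.07 had a 95% confidence interval from -0.07 to 0.21 and an adjusted p of 0.411.

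Pparg and Ppard differed in opposite directions. Pparg codes for PPARγ, a receptor for fatty acid derivatives that drives lipid uptake and storage (cluster 10540897). In sTM-treated cultures its lowest, median and highest log2 values were 8.43, 9.98 and 10.45 in TM+ DCs and 7.93, 8.94 and 9.21 in TM- DCs. In untreated cultures the TM+ arrays had 11.12, 11.12, 9.71 and 9.59, and the TM- arrays had 9.73, 9.69, 8.62 and 8.69. The groups overlap when experiments are pooled, but within each experiment all TM+ arrays were above all TM- arrays. The pooled difference was 1.06 ± 0.21 with an adjusted p of 0.000356.

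Ppard codes for PPARδ, a receptor of the same class that acts broadly on fatty acid oxidation (cluster 10443332). The lowest, median and highest log2 values in sTM-treated cultures were 8.12, 9.47 and 9.93 in TM+ and 8.71, 10.13 and 10.47 in TM- DCs. In untreated cultures TM+ arrays had 9.98, 9.98, 9.40 and 9.44, and TM- arrays had 10.09, 10.04, 10.34 and 10.48. Ppard was lower in TM+ DCs in each experiment, by little in experiment 3 and by much in experiment 4. Pooled, it fell by 0.55 on the log2 scale (SE 0.16, adjusted p = 0.00873), 1.47-fold lower in TM+ DCs. Without experiment 4 the difference was -0.23 and not called (adjusted p = 0.605).

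Vdr, the gene of the vitamin D receptor (cluster 10432032), was not called. Its lowest, median and highest log2 values were 9.01, 9.88 and 10.58 in TM+ and 9.18, 10.36 and 11.31 in TM- DCs of sTM-treated cultures. In untreated cultures TM+ arrays had 9.76, 9.89, 10.19 and 10.13, and TM- arrays had 10.70, 10.64, 10.01 and 10.16. TM+ arrays were lower in experiment 3 and in sTM-treated cultures of experiment 4, and overlapped the TM- arrays in the other cultures. The pooled difference was -0.38 ± 0.16 with an adjusted p of 0.0616. It passed the threshold when either TM- array 2 of experiment 2 or TM+ array 1 of the untreated cultures of experiment 4 was left out (adjusted p down to 0.0318). Of 13 other alternative fits 8 also called Vdr lower, among them those with the experiment as a fixed factor, without experiment 2 and by the mixed model (adjusted p from 0.00105 to 0.475 over the 13).

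All 3 Nr4a genes were lower in TM+ DCs. To show the DNA from which they are read, the 250 bases before the transcription start of each are given here as RefSeq has them in build GRCm38.p6, 5′ to 3′ in the direction of the gene. Capitals mark the letters TGACG or, for the other strand, CGTCA, the half-site of the cyclic AMP response element (CRE), a sequence that factors of the CREB family are known to bind. The windows are chr15:101266596-101266845 (plus strand) for Nr4a1, chr2:57124004-57124253 (minus strand) for Nr4a2 and chr4:48045055-48045304 (plus strand) for Nr4a3.
Nr4a1: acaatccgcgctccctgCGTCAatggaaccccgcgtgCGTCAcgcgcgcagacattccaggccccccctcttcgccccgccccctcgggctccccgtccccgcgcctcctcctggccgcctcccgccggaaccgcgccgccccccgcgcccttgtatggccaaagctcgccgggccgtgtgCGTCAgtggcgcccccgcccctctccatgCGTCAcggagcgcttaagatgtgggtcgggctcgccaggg
Nr4a2: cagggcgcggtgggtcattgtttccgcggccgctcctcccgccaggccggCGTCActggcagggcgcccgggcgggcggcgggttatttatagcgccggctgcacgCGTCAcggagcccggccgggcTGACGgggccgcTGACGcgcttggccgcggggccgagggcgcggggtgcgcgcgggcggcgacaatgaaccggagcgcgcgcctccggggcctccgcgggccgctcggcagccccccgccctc
Nr4a3: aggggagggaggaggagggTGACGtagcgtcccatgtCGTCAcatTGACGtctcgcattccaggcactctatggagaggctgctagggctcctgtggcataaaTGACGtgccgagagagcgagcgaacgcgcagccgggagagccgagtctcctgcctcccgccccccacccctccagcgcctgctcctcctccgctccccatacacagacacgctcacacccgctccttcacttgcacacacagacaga
Each of the 3 windows held 4 half-sites, which do not overlap each other. At least 1 half-site was present in 17.8% of 32851 such windows of mouse genes, and 4 or more in 0.137% (45 windows). The full element TGACGTCA, which contains the half-site on both strands, was in 1.55% of windows and in none of the 3. Among the 18 windows of the 10 receptors, the half-site was otherwise found once in 1 of 4 windows of Rara and once in 1 of 2 windows of Rxrb. The nuclear receptor half-site AGGTCA (or TGACCT), present in 14% of all windows, was found in no Nr4a window and in windows of Rarg, Rxra and Pparg. The GC box GGGCGG (or CCGCCC), present in 32.7% of all windows, occurred in Nr4a1 3 times, in Nr4a2 4 times and in Nr4a3 once. A TATAA (or TTATA), present in 22.8% of all windows, was matched in the window of Nr4a2 but not in those of Nr4a1 and Nr4a3. These are matches of letters only.

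Nr4a2, which codes for NURR1 (cluster 10482772), showed the largest difference of the family. In sTM-treated cultures its lowest, median and highest log2 values were 6.77, 8.07 and 8.72 in TM+ DCs and 7.34, 9.49 and 9.74 in TM- DCs. In untreated cultures the TM+ arrays had 8.56, 8.70, 8.27 and 8.22, all below the TM- arrays at 9.78, 9.68, 9.83 and 10.04. In the sTM-treated cultures both fractions of experiment 2 were low and the pooled groups overlap, but they do not overlap within any experiment. Nr4a2 fell by 1.19 on the log2 scale (SE 0.19, adjusted p = 3.75e-05).

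Nr4a1 codes for NUR77, the family member best known from activated lymphocytes and macrophages (cluster 10427035). Its lowest, median and highest log2 values in sTM-treated cultures were 7.17, 7.41 and 7.79 in TM+ and 7.86, 8.15 and 8.47 in TM- DCs, without overlap. In untreated cultures TM+ arrays had 7.74, 7.97, 7.70 and 7.68, and TM- arrays had 7.86, 8.03, 8.16 and 8.30, with overlap in experiment 3 alone. It fell by 0.53 (SE 0.09, adjusted p = 5.35e-05), 1.44-fold lower in TM+ DCs. Nr4a3, which codes for NOR1 (cluster 10504838), had lowest, median and highest values of 8.53, 9.23 and 9.87 in TM+ and 8.50, 10.19 and 10.79 in TM- DCs of sTM-treated cultures. In untreated cultures TM+ arrays had 9.23, 9.35, 9.79 and 9.77, all below the TM- arrays at 10.02, 9.94, 10.20 and 10.22. In experiment 2 the fractions did not separate, with TM+ arrays at 8.53 and 8.82 and TM- arrays at 8.50 and 8.85. Over all sorted arrays Nr4a3 fell by 0.57 (SE 0.17, adjusted p = 0.0109), 1.49-fold lower in TM+ DCs. Without experiment 3 or without experiment 4 the call was lost (differences -0.45 and -0.54, adjusted p = 0.0537 and 0.142).

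Levels of several marker lists differed with sorting too. Beside the counts below, 18.6% of all genes were called higher and 18.7% lower in TM+ DCs by limma. All 12 markers of DC maturation measured were lower in TM+ DCs (median log2 difference -1.02, from -2.74 for Il12b to -0.36 for Cd86), with array medians from 9.70 to 11.38 in TM+ and from 10.92 to 12.11 in TM- DCs of sTM-treated cultures, and from 10.48 to 10.54 in TM+ and from 11.37 to 11.51 in TM- DCs of untreated cultures. Conversely, all 11 cell division genes were higher (median 2.06), with array medians from 8.83 to 10.98 in TM+ and from 6.74 to 8.18 in TM- DCs of sTM-treated cultures, and from 10.09 to 11.10 in TM+ and from 6.98 to 7.72 in TM- DCs of untreated cultures. Neutrophil markers were called higher for 9 of 12, with array medians from 8.65 to 9.57 in TM+ and from 6.89 to 7.48 in TM- DCs of untreated cultures, and from 6.58 to 8.50 in TM+ and from 6.48 to 7.29 in TM- DCs of sTM-treated cultures. Of 10 macrophage and monocyte markers 6 were higher and 1 was lower, and of 12 eosinophil, mast cell and basophil markers 3 were higher and 1 was lower. The counts of this last list were close to the shares of all genes. In RNA from many cells, fewer cells of a type and less RNA per cell cannot be told apart, and the part of these markers in the receptor differences was not tested.

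**Figure D2:**
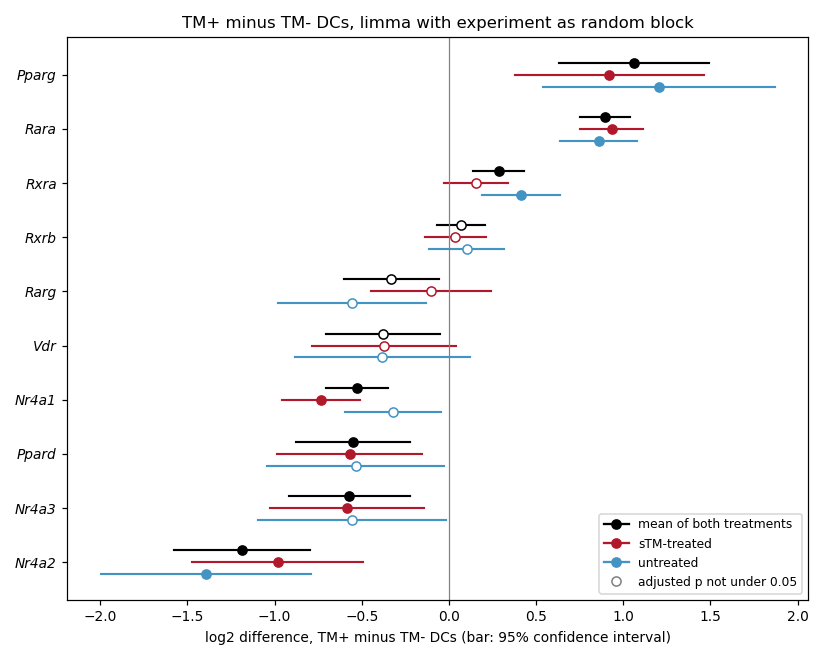
Log2 difference between TM+ and TM- DCs for each receptor (horizontal axis), with 95% confidence intervals from limma, over both kinds of culture and for sTM-treated and untreated cultures alone. Open circles did not reach an adjusted p under 0.05. Pparg, Rara and Rxra lie to the right (higher in TM+), and Ppard and the 3 Nr4a genes to the left.

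When the fractions were compared within 1 kind of culture, fewer receptors were called. In sTM-treated cultures Rara (log2 difference 0.93 ± 0.09) and Pparg (0.92 ± 0.26) were higher in TM+ DCs, and Nr4a2 (-0.98 ± 0.24), Nr4a1 (-0.73 ± 0.11), Nr4a3 (-0.58 ± 0.21) and Ppard (-0.57 ± 0.20) were lower, so that 2 receptors were higher and 4 lower beside 11.6% and 12.4% of all genes. In untreated cultures Pparg (1.20 ± 0.32), Rara (0.86 ± 0.11) and Rxra (0.41 ± 0.11) were higher and Nr4a2 (-1.39 ± 0.29) was lower, 3 and 1 receptors beside 13.2% and 7.93% of all genes (limma with Benjamini-Hochberg adjustment, 4 arrays a group). The calls of Nr4a3 and Ppard in sTM-treated cultures were close to the threshold (adjusted p = 0.0496 and 0.0414), and leaving out 1 array at a time kept them in 4 and 13 of 20 cases (adjusted p up to 0.115 and 0.103). Pparg and Nr4a2 lost their calls there without an experiment term and without experiment 4 (limma adjusted p up to 0.131 and 0.129). In untreated cultures Nr4a2 lost its call in the same fits (up to 0.171), and Pparg without an experiment term (up to 0.123). Rxra lost its call there with centring on the 75th percentile and without experiment 3 (up to 0.257). That Nr4a1 was called in sTM-treated but not in untreated cultures (-0.32 ± 0.13, adjusted p = 0.0958) does not show that it responded differently. The interaction of sorting and treatment, which tests this, was -0.41 ± 0.17 for Nr4a1 with an adjusted p of 0.717. None of the 10 receptors passed the limma test of the interaction, for which 0.01% of all genes were called. With limma 1 of 10 receptors and 6.15% of all genes had an unadjusted p under 0.05. The mixed model of the study's methods also called 0 and had 1 receptor at that level.

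The size of the sorting difference was not the same in experiments 3 and 4 for 4 of the 10 receptors. This test was added after the data had been seen, over the 16 sorted arrays of these experiments, and 25.5% of all genes passed it. Rarg differed by -0.85 in experiment 4 and by -0.03 in experiment 3, a change of -0.82 ± 0.10 (adjusted p = 2.01e-05). Ppard differed by -0.98 and by -0.16 (change -0.81 ± 0.10, adjusted p = 1.75e-05). Nr4a2 differed by -1.55 and by -1.07 (change -0.48 ± 0.11, adjusted p = 0.00393). Vdr went the other way, with -0.20 in experiment 4 and -0.67 in experiment 3 (change 0.48 ± 0.14, adjusted p = 0.0167). For Rara, Pparg, Nr4a1 and Nr4a3 the change between these experiments lay between -0.08 and 0.11 and was not called. For Rxra (-0.27 ± 0.14, adjusted p = 0.185) and Rxrb (-0.20 ± 0.10, adjusted p = 0.183) it was larger but not called either. Rxra differed by 0.18 in experiment 4 and by 0.45 in experiment 3, and Rxrb by 0.02 and by 0.22.

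Experiment 2 stood apart in level. In its sTM-treated sorted DCs, Rara, Pparg, Ppard, Vdr, Nr4a2 and Nr4a3 were below every array of experiments 3 and 4 within each fraction, which makes 6 of 10 receptors where 12.5% of all genes showed this. None of the receptors was above without overlap, as 10.6% of all genes were. Nr4a2, for example, had 6.77 and 7.05 in TM+ DCs of experiment 2 against 8.06 to 8.72 in experiments 3 and 4, and 7.34 and 7.43 in TM- DCs against 9.42 to 9.74. Experiment 2 holds no untreated sorted arrays. Without it 9 receptors were called between the fractions, 3 higher and 6 lower, beside 3634 higher and 3943 lower of all 19938 genes.

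Over experiments 2, 3 and 4 together, no receptor was called for sTM treatment in sorted DCs by limma. Taking both fractions together 0 of 10 receptors and 0.015% of all genes were called, with 3 receptors and 8.06% of all genes at an unadjusted p under 0.05. The mixed model also called 0 and had 3 at that level. Those 3 were Rarg with a log2 difference of 0.36 ± 0.14 between sTM-treated and untreated DCs (adjusted p = 0.469), Nr4a1 with -0.20 ± 0.09 (adjusted p = 0.589) and Rxra with -0.19 ± 0.07 (adjusted p = 0.443). In TM+ DCs alone 0 receptors and 0.853% of all genes were called by limma. There 3 receptors and 10.2% of all genes had an unadjusted p under 0.05 (4 receptors with the mixed model, which called 0). The same 3 genes had 0.58 ± 0.19, -0.40 ± 0.13 and -0.32 ± 0.10. Markers of other cells moved with sTM in the same comparison. In TM+ DCs 4 of 12 neutrophil markers were called lower, namely Ltf (-2.19), S100a9 (-1.91), Camp (-1.28) and Elane (-0.58), and so was Ciita (-0.82), the activator of MHC class II genes. The array medians of the neutrophil list were 6.58 to 8.50 in treated and 8.65 to 9.57 in untreated TM+ DCs, and the part of these markers in the treatment differences was not tested. In TM- DCs alone 0 receptors and 0% of all genes were called (0 receptors and 3.62% of all genes at an unadjusted p under 0.05 with limma, and 1 receptor with the mixed model, which called 0). With arrays weighted by their fit, Rxra and Nr4a1 passed the test as lower with sTM over both fractions (-0.30 and -0.34, adjusted p = 0.00401 and 0.00277), but that fit called 848 genes higher and 992 lower of all 19938, where the unweighted fit called 2 and 1. The 95% confidence intervals were wide in the unweighted fit. That of Pparg ran from -0.74 to 0.17 and that of Nr4a2 from -0.73 to 0.10 over both fractions. Experiment 2 gave sTM-treated but no untreated sorted arrays. A random block removes its low level only in part, so that level can enter these pooled differences. For Nr4a2 the pooled difference was -0.32, against 0.0092 in experiment 3 and -0.30 in experiment 4. With the experiment as a fixed factor, or without experiment 2, 0 receptors were called for sTM as well.

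**Figure D3:**
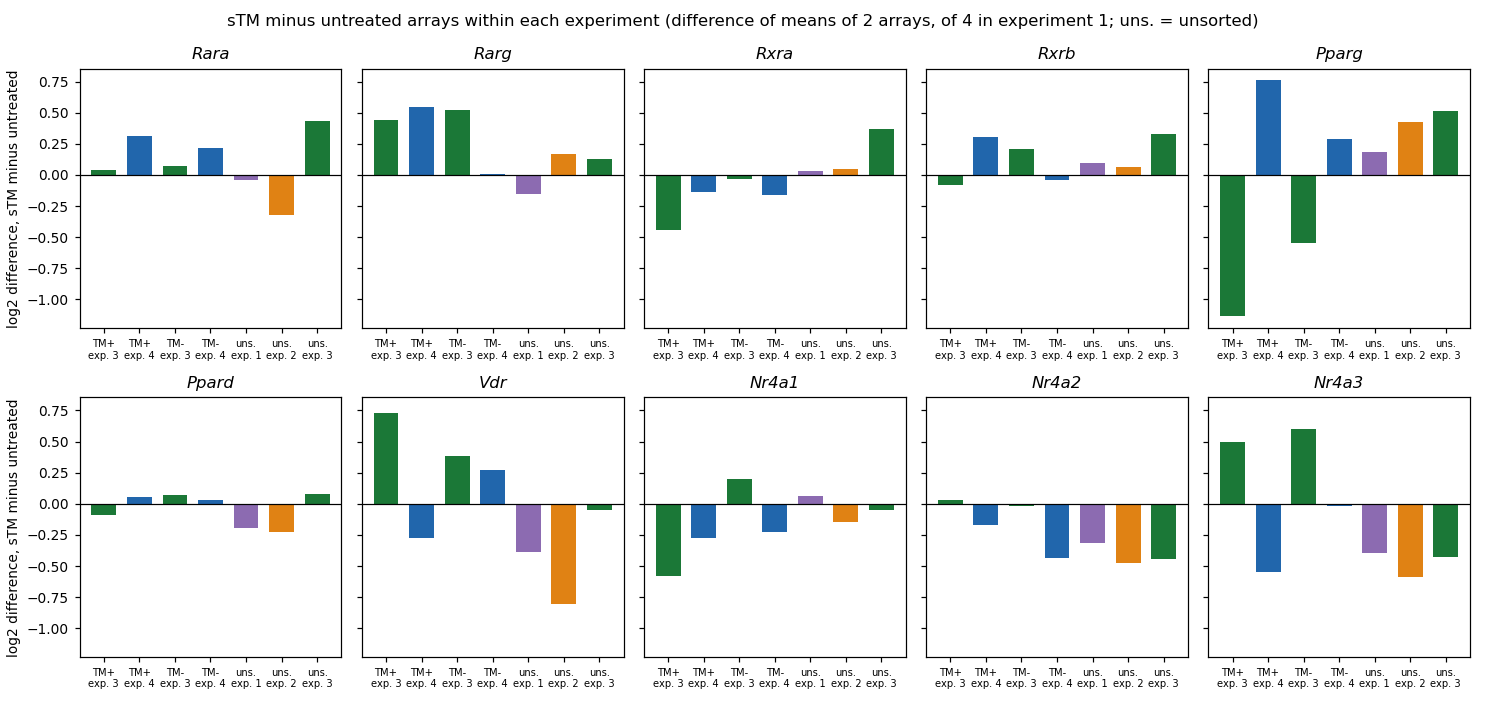
Log2 difference between sTM-treated and untreated arrays (vertical axis) for each receptor, within each experiment and cell fraction, as differences of means over 2 arrays a side, or 4 in experiment 1. For Pparg both sorted fractions of experiment 3 are below 0 and those of experiment 4 above it, and unsorted DCs are above 0 in all 3 experiments.

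For 3 receptors the sTM difference was not the same in experiments 3 and 4, by the same added test, which 9.16% of all genes passed. Pparg had the largest. In experiment 3 its TM+ arrays had 9.94 and 10.03 with sTM against 11.12 and 11.12 without, and its TM- arrays 9.10 and 9.21 against 9.73 and 9.69. In experiment 4 the TM+ arrays had 10.45 and 10.36 with sTM against 9.71 and 9.59 without, and the TM- arrays 8.89 and 8.995 against 8.62 and 8.69. Every sTM-treated array was thus below its untreated counterparts in experiment 3 and above them in experiment 4. Averaged over the fractions the sTM difference was 0.52 in experiment 4 and -0.84 in experiment 3, and the difference between these was 1.37 ± 0.10 (limma adjusted p = 2.01e-07). Without experiment 4 Pparg was called lower with sTM over both fractions (-1.00045, adjusted p = 0.0102).

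Nr4a3 differed with sTM by -0.28 in experiment 4 and by 0.55 in experiment 3 (change -0.84 ± 0.13, adjusted p = 0.000337). The part of experiment 4 lay in TM+ DCs, where sTM-treated arrays had 9.29 and 9.17 against 9.79 and 9.77 in untreated arrays, while TM- arrays had 10.20 and 10.17 against 10.20 and 10.22. Vdr differed by -0.0012 in experiment 4 and by 0.56 in experiment 3 (change -0.56 ± 0.14, adjusted p = 0.0162). Within single experiments the same limma fit called Rarg higher with sTM in experiment 3 (0.48 ± 0.07, adjusted p = 0.000214) and in experiment 4 (0.28 ± 0.07, adjusted p = 0.0426). It called Pparg in both, lower in experiment 3 and higher in experiment 4. Vdr and Nr4a3 were called higher in experiment 3, and Nr4a2 lower in experiment 4 (-0.30, adjusted p = 0.0388). The share of all genes called within a single experiment was not counted. With 2 arrays a group in an experiment, experiment and any difference in how its cultures were handled cannot be told apart.

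In unsorted DCs, sTM treatment called 0 of 10 receptors and 0% of all genes with limma (0 receptors and 4.71% of all genes at an unadjusted p under 0.05, and 1 receptor with the mixed model, which called 0). The largest differences were those of Nr4a3 (-0.45 ± 0.24), Vdr (-0.41 ± 0.20), Nr4a2 (-0.38 ± 0.27) and Pparg (0.33 ± 0.26), each with an adjusted p of 0.999. Within experiments, the mean of Pparg was 0.19, 0.43 and 0.52 higher with sTM in experiments 1, 2 and 3. The mean of Nr4a2 was lower by 0.31, 0.47 and 0.44, and that of Nr4a3 by 0.39, 0.59 and 0.43. In experiment 3 the direction for Pparg was opposite to that in the sorted fractions of the same experiment, with 10.47 and 10.26 in unsorted sTM-treated arrays against 9.93 and 9.77 in untreated arrays. Nr4a3 was opposite as well, with 9.23 and 9.56 against 9.78 and 9.86.

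**Figure D4:**
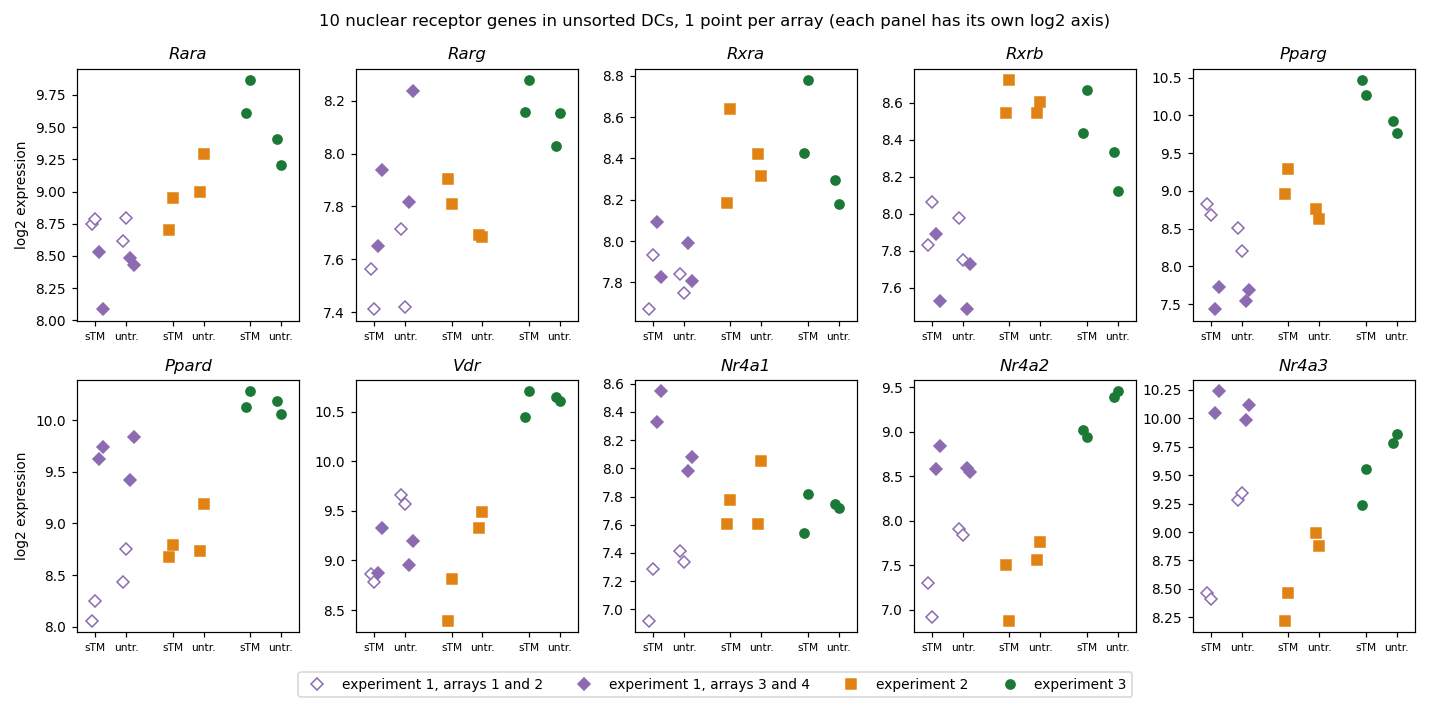
Log2 expression of the 10 receptors in the 16 arrays of unsorted DCs, by experiment and treatment, with 1 point per array. Open diamonds are arrays 1 and 2 of experiment 1 and filled diamonds arrays 3 and 4. For Ppard and the 3 Nr4a genes all open diamonds lie below all filled ones.

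Within experiment 1 the unsorted arrays fell into 2 sets by array number, and this was seen in 6 of the 10 receptors. Arrays 1 and 2 of both treatments were below arrays 3 and 4 for Nr4a1 (6.92 to 7.41 against 7.98 to 8.55), Nr4a2 (6.92 to 7.91 against 8.55 to 8.84), Nr4a3 (8.41 to 9.34 against 9.98 to 10.24) and Ppard (8.06 to 8.76 against 9.41 to 9.84). They were above for Pparg (8.20 to 8.83 against 7.43 to 7.73) and Rara (8.61 to 8.80 against 8.08 to 8.53). Over all 19938 genes 3192 were below and 3857 above in the same way. Each set holds both treatments, and the labels do not say what separates array numbers. The 6 receptors are those that also differed between TM+ and TM- DCs apart from Rxra, and the arrays with low Nr4a genes had high Pparg and Rara. How many of all genes did both, and in which directions, was not counted, so this overlap cannot be read as a trait of the receptors.

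A mean of unsorted DCs did not always lie between those of the 2 fractions sorted in the same experiment. In sTM-treated cultures it was between them for 5 of 10 receptors in experiment 2 and for 4 in experiment 3, and in untreated cultures of experiment 3 for 7. The share of all genes placed between the fractions was not counted, so these counts cannot be read as a trait of the receptors. Pparg in sTM-treated cultures of experiment 3 averaged 10.37 in unsorted DCs, above 9.98 in TM+ and 9.16 in TM- DCs. It averaged 9.12 in unsorted DCs of experiment 2, against 8.48 in TM+ and 8.01 in TM- DCs. Nr4a3 in sTM-treated cultures of experiment 3 averaged 9.39 in unsorted DCs, below 9.79 in TM+ and 10.58 in TM- DCs. Rara was between the fractions in all 3 comparisons.

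Of 35 other nuclear receptors measured, 7 were called lower in TM+ DCs and 0 higher by limma, beside 18.7% and 18.6% of all genes, so that the share of lower calls was near that of all genes. Their median log2 difference was -0.14, beside -0.08 over all genes. An unadjusted p under 0.05 was found for 14 of the 35, beside 47.9% of all genes. In sorted DCs their array medians lay between 5.81 and 6.47, below the lowest array median over all clusters (6.599), so many were measured at low levels. Among the 35 were the remaining members of the same families, named after their values were seen. Ppara, the gene of PPARα, was called lower (-0.23, adjusted p = 0.0223), while Rarb (-0.12) and Rxrg (-0.04) were not called. The largest falls were in Rora (-1.08 ± 0.20), a receptor of lymphoid and circadian programmes, Thra (-0.91 ± 0.17), the thyroid hormone receptor alpha, Nr1d1 (-0.63 ± 0.14), a circadian repressor, and Nr3c1 (-0.45 ± 0.08), the glucocorticoid receptor. Among 22 coregulators 5 were called higher and 3 lower, near the same shares of all genes. Gps2, a subunit of the NCoR corepressor complex, was 1.502-fold higher, Prmt1, an arginine methyltransferase coactivator, 1.37-fold higher, and Ncoa7 1.43-fold lower in TM+ DCs. For treatment, Pgr, the progesterone receptor gene, was lower with sTM in TM+ DCs (-0.62 ± 0.15, adjusted p = 0.0481), with a mean of 5.32 in treated and 5.89 in untreated TM+ DCs, both below the array medians.

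**Figure D5:**
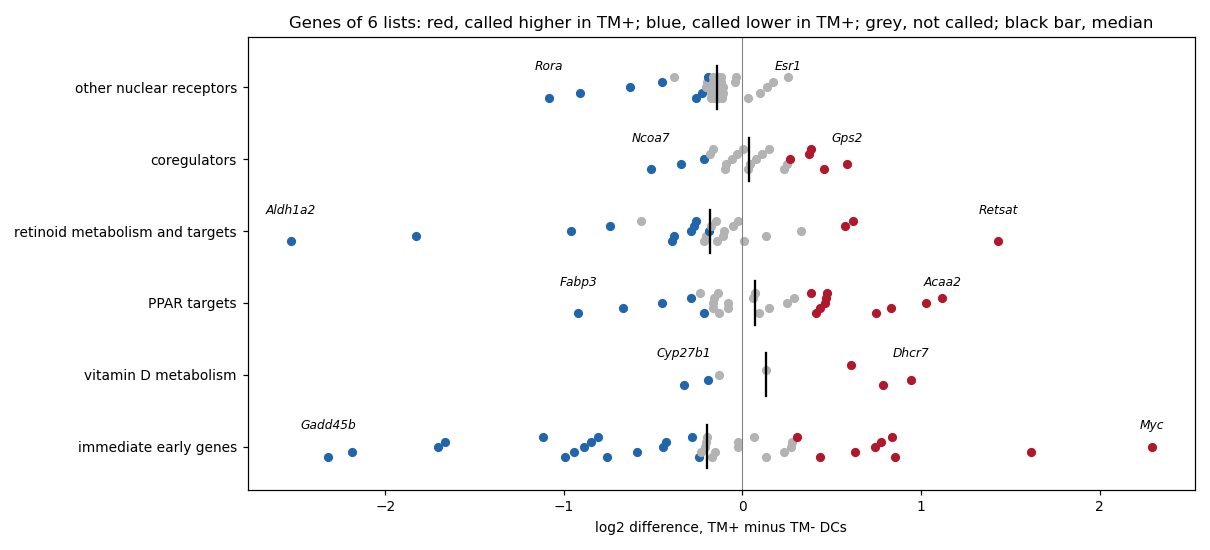
Log2 difference between TM+ and TM- DCs (horizontal axis) for every measured gene of 6 lists, with the median of each list as a black bar and the lowest and highest genes named. Retinoid and immediate early genes spread widely in both directions, from -2.53 for Aldh1a2 and -2.32 for Gadd45b to 1.43 for Retsat and 2.29 for Myc.

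Genes of retinoid metabolism were more often called lower than higher in TM+ DCs. Of 26 genes of retinoid metabolism and response measured, 3 were called higher and 10 lower, beside 18.6% and 18.7% of all genes, with a median of -0.18. Aldh1a2, the retinaldehyde dehydrogenase that makes retinoic acid, was 5.77-fold lower in TM+ DCs (log2 difference -2.53 ± 0.35, adjusted p = 8.02e-06). This difference was -3.57 in untreated and -1.49 in sTM-treated cultures, while 0 genes of the list were called for the interaction. Rdh12, a retinol dehydrogenase, was 3.55-fold lower, and Cyp26b1, which breaks retinoic acid down, was 1.95-fold lower. Retsat, which saturates retinol, was 2.70-fold higher.

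PPAR-responsive genes went in both directions, with 10 of 29 called higher and 5 called lower beside 18.6% and 18.7% of all genes, and a median of 0.07. Acaa2, a thiolase of mitochondrial fatty acid oxidation, was 2.17-fold higher in TM+ DCs (adjusted p = 8.06e-09), Scd1, the stearoyl-CoA desaturase, 2.04-fold, and Angptl4, an inhibitor of lipoprotein lipase, 1.78-fold. Fabp3, which carries fatty acids in the cell, was lower, with a log2 difference of -0.92.

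For vitamin D, TM+ DCs had 3 of 7 genes called higher and 2 called lower, too few to set against the 18.6% and 18.7% of all genes. Cyp27a1 (1.72-fold) and Cyp2r1 (1.52-fold), which hydroxylate vitamin D, and Dhcr7 (1.92-fold), which uses up its precursor, were higher in TM+ DCs. Cyp27b1, which makes the active hormone and was chosen after its value was seen, was lower by 0.33 on the log2 scale.

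Immediate early genes, the class of the Nr4a genes, did not move as 1 block. Of the 38 measured, 16 were called lower and 9 higher in TM+ DCs, beside 18.7% and 18.6% of all genes, with a median of -0.20. Gadd45b (log2 difference -2.32), Dusp4 (4.54-fold) and Csrnp1 (3.27-fold) were lower along with the Nr4a genes. Myc, a growth-promoting factor, was 4.91-fold higher. With sTM, Fosb (-1.34 ± 0.25, adjusted p = 0.0131) and Egr3 (-0.64 ± 0.12, adjusted p = 0.0168) were lower in TM+ DCs, a comparison in which neutrophil markers were lower too, as given above. Among genes singled out after their values were seen, Atf3, a stress-induced factor of the ATF/CREB family, was 3.17-fold lower in TM+ DCs, and Crem, which codes for a CRE-binding factor, was 1.35-fold lower. The ATF/CREB family was not surveyed as a whole, and a link to the half-sites in the Nr4a windows was not tested.

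The genes most like each called receptor over the 20 sorted arrays were sought by the root mean square (RMS) difference of their log2 values, each gene centred on its own mean. Rara was nearest to 3110082I17Rik (RMS 0.17) and Ctdspl (0.17), and Rxra to Bcar3 (0.10) and Lrp5 (0.13). Pparg was nearest to Hgfac (0.30) and Scd1 (0.33), and Ppard to Atxn1 (0.16) and Creb5 (0.16). For the Nr4a genes the nearest were Rbm4b (0.19) and Olfr577 (0.19) for Nr4a1, Slc25a37 (0.26) and Tet2 (0.36) for Nr4a2, and Grk3 (0.21) and Dcp1a (0.22) for Nr4a3. No Nr4a gene was among the 2 nearest of another. The SDs of the receptors themselves over these arrays ran from 0.22 for Rxra to 1.02 for Nr4a2.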

How the data were processed

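RNA of 36 samples was hybridised to Affymetrix mouse whole-transcript arrays. The authors processed the arrays with RMA (background correction, normalisation between arrays, summary per transcript cluster) and deposited linear intensity values. No source at hand states whether all 36 arrays were normalised together. The deposited intensities were taken to log2. Of 35556 transcript clusters 21789 had 1 gene symbol in the platform annotation, 1621 several and 12146 none. For each of 19938 symbols the cluster with the highest mean was kept. limma (version 3.58.1, in R 4.3.3) was fitted to the 20 sorted and the 16 unsorted arrays apart, with group means and the experiment as a random block (correlation 0.396 and 0.375), and p-values were adjusted by the Benjamini-Hochberg method over all genes and called below 0.05. A linear mixed model per gene (lme4 1.1.37, lmerTest 3.1.3) and further fits served as alternatives. The precision is limited by the number of arrays. The scripts were tested on simulated data. All 10 receptors are reported with their values. From pathway lists the 2 to 4 genes with the largest called sorting difference and any gene called for treatment are named, from marker lists up to 4, and for each called receptor the 2 nearest genes. The receptors and lists were chosen with earlier results of these data known. Promoter windows were read from a RefSeq table (GRCm38.p6). Protein sequences were not used here.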

Additional observations from a re-analysis of the deposited data

Results flagged for a closer look

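Among 60 groups of arrays (10 receptors in 6 groups), 1 held an array far from the others by Dixon's test, which chance gives for about 1 group in 20. Rxrb in TM- DCs of sTM-treated cultures was 8.70 in array 1 of experiment 2, against 8.42 in the nearest and 8.31 in the lowest of the other arrays, a gap of 0.701 of the whole range.

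Differences between TM+ and TM- DCs that were unlike in experiments 4 and 3 were found, by the limma test of that change, for Rarg (-0.82), Ppard (-0.81), Nr4a2 (-0.48) and Vdr (0.48). Differences between sTM-treated and untreated DCs that were unlike in experiments 4 and 3 were found for Pparg (1.37), Nr4a3 (-0.84) and Vdr (-0.56). Each value is the log2 difference in experiment 4 minus that in experiment 3.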

How the results depend on the processing

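No log2 difference of a receptor that was called turned its direction under any alternative. Of 330 values for TM+ against TM- DCs, 299 kept their side of the threshold, 25 passed it in addition and 6 no longer passed it. A few values that were called in neither fit changed sign, with Rarg up to 0.07 and Rxrb down to -0.07. With 7 receptors called in the fit reported, alternatives called 5 (without an experiment term, or without experiment 4) to 9. Over all genes, 3709 higher and 3729 lower became 2655 and 2172 without an experiment term, and 1484 and 985 without experiment 4. In untreated cultures the count of 4 became 2 without an experiment term, a fit that called 1547 genes higher and 872 lower of all 19938. It became 8 with array weights, a fit that called 5158 genes higher and 4764 lower, against 2623 and 1582 in the fit reported. In sTM-treated cultures the count of 6 became 2 without an experiment term and 2 without experiment 4. Over all genes, 2311 higher and 2481 lower became 1261 and 1035, and 1136 and 768, in these fits. For sTM treatment in sorted DCs the count of 0 became 2 with array weights and 1 without experiment 4. Over all genes, 2 higher and 1 lower became 848 and 992, and 305 and 149, in these fits. The cause was not tested. Leaving out 1 array at a time gave 7 to 9 receptors between the fractions, 4 to 6 in untreated cultures, 4 to 6 in sTM-treated cultures, and 0 to 0 for sTM treatment in sorted DCs, the interaction and unsorted DCs. Arrays of 1 number deviated together in some pairs of groups and not in others (correlations from -0.550 to 0.396 over 13 pairs of sorted groups, 6 of them over 0.1, and, for unsorted sTM-treated and untreated arrays, 0.642 in experiment 1, 0.022 in experiment 2 and 0.137 in experiment 3), so the numbers were not taken to pair samples. With the array number of each experiment as a replicate block, 8 receptors were called between the fractions, 5 in untreated and 6 in sTM-treated cultures, and 0 for sTM treatment in sorted DCs, for the interaction and for unsorted DCs. In unsorted DCs this block left 4 receptors at an unadjusted p under 0.05, against 0 without it, and called 11 genes higher and 42 lower with sTM, against 0 and 0. The median log2 difference of all genes between the fractions was -0.08, and -0.16 when arrays were centred on the 75th percentile.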
